A study of Mus musculus with 10 samples.

Results

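Induced cardiomyocyte-like cells (iCM) sorted at day 18 were compared with the same kind of cells sorted at days 3 and 7. By their titles, 2 of the 10 arrays of the series are day 18 arrays, 1 of cells given GMT (GMT) and 1 of cells given GMT with miR-133 (GMT/miR-133). They were set against 4 early arrays, 1 of each treatment at day 3 and at day 7. GMT, which the labels do not spell out, is the field's name for the transcription factors Gata4, Mef2c and Tbx5, delivered by pMx retrovirus to mouse embryonic fibroblasts (MEF), and the added microRNA was a synthetic mimic of mature miR-133a. All 6 iCM samples were gated on GFP under the α-MHC promoter, so each was sorted for cells carrying the product of that cardiac promoter. Sort purity was not measured in the files used here. A heart array and an array of untreated MEF served as controls, and 2 further day 7 arrays, a second GMT/miR-133 array and a GMT/miR-133/Snai1 array, took no part in the comparison and are given beside it. The description of the second GMT/miR-133 array names GMT alone, while its title and treatment name miR-133.

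As background, forced expression of Gata4, Mef2c and Tbx5 moves part of a fibroblast culture toward a cardiomyocyte-like state without a stem cell stage. α-MHC, the heavy chain of cardiac myosin encoded by Myh6, is switched on early in this process, well before cells beat, which is why a reporter on its promoter is used to collect converting cells. Conversion has 2 sides, the loss of fibroblast genes such as those of the extracellular matrix and the gain of cardiac genes for the contractile apparatus and calcium handling. miR-133 is a muscle microRNA that lowers Snai1, a repressor that maintains the mesenchymal state.

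The comparison asked what separated cells that had carried the factors for longer from the early ones. Each treatment and day has 1 array, so the treatments and the early days stand in for replicates, and a p-value measures only the spread among these arrays. Nothing in the labels says that days came from separate cultures, and age in culture cannot be told apart from a difference between sorts. Intensities are given on the log2 scale after background correction and quantile normalization, where the lowest values lie near 5.7. Between 19111 and 20311 of 23473 probes were detected per iCM array, that is, were brighter than the 95th percentile of the blank spots. Spots named as having no probe had medians close to that cutoff, so detection is a lenient call. The files used here do not pair probes with genes, so no gene is named, and the cells could not be checked against cardiomyocyte or fibroblast marker genes. The heart and MEF arrays take the place of such markers. Probes whose heart value was at least 4-fold their MEF value are called heart-high, and those with at least 4-fold the heart value in MEF are called MEF-high. Neither set uses an iCM array.

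The 2 day 18 arrays were close to each other. The SD of their log2 difference across the 20674 tested probes was 0.171, although they differ in treatment, and 34 probes differed at least 2-fold. The pair of treatments at an early day was about as close, with an SD of 0.174 at day 3 and 0.2 at day 7. Between day 18 and the day 3 arrays the SD was 0.227 to 0.26, and between day 18 and the day 7 arrays it was 0.359 to 0.385. Day 18 thus stood apart from both early days by more than treatments did within a day. The day 3 and day 7 arrays also differed from each other, with an SD of 0.262 to 0.325. Per the file headers, the day 7 pair was scanned in another session than days 3 and 18. Day and session cannot be told apart for it. The authors' value table assigns the files of days 3 and 7 the other way round, with the treatment kept. Pooling both days leaves the comparison unaffected by this, and values printed for 1 early day hold for the files as assigned.

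At day 18, 11 of 20674 probes rose against days 3 and 7 (0.0532%), and 0 fell (0%), by limma with treatment as a block and Benjamini-Hochberg adjustment at 0.05. Without adjustment 1691 probes were higher and 1628 lower at p under 0.05, and the smallest adjusted p among lower probes was 0.0583. The 11 probes shared a pattern: they were near the bottom of the scale on all 4 early arrays, clearly measured on both day 18 arrays and, all but 1 of them, brightest in MEF. The low early level is partly what the test picks. A difference between days 3 and 7 counts as spread in it, and values near the floor vary little. With a trended and robust variance 203 probes were higher and 21 lower, and with each day a term 905 and 760.

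The largest rise was at probe M400005459. It stood at 12.03 (GMT) and 11.38 (GMT/miR-133) on the day 18 arrays, against 6.13 and 5.84 on the day 3 arrays and 5.84 and 5.92 on the day 7 arrays (GMT first). No early array came near a day 18 array. As scanned, the spot gave 4236 and 2529 units at day 18, against 24 to 36 units on the early arrays, where the cutoff from blank spots was 16 to 27. The change was 5.77 ± 0.16 (log2, SE; limma, adjusted p = 0.0041). In MEF the probe was at 13.79 and in heart at 8.54, so the early cells were below both controls and the day 18 cells between them.

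Probe M400000367 behaved alike. It was at 10.72 and 10.35 on the day 18 arrays, against 6.02 and 5.78 at day 3 and 5.87 and 5.83 at day 7. The scanned spot gave 1798 and 1255 units at day 18 and 22 to 35 units early. The change was 4.66 ± 0.082 (log2, SE; limma, adjusted p = 0.00101). This probe, too, was far brighter in MEF, at 13.37, than in heart, at 8.32, and day 18 again lay between the controls. On the 2 held-out day 7 arrays, M400005459 was at 5.72 and 5.81 and M400000367 at 5.75 on both, which is the early level.

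The other 9 probes that passed rose by 1.03 to 2.37 on the log2 scale, with adjusted p of 0.00616 to 0.0449 by limma. Their day 18 values ran from 6.77 to 8.31 and their early values from 5.67 to 6.04, and at each of these probes the gap between the groups was wider than the spread within either. The SD over the 4 early arrays was 0.02 to 0.12. Early values of this kind are close to the floor that background correction sets. Of the 44 early values of the 11 probes, 33 would count as detected against blank spots and 25 exceeded the 95th percentile of the spots without a probe, while all 22 day 18 values exceeded both. Both the size of the change at these probes and their calls therefore depend on how the floor is set. With background taken from the local background column, 1 of the 11 was called.

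**Figure D1:**
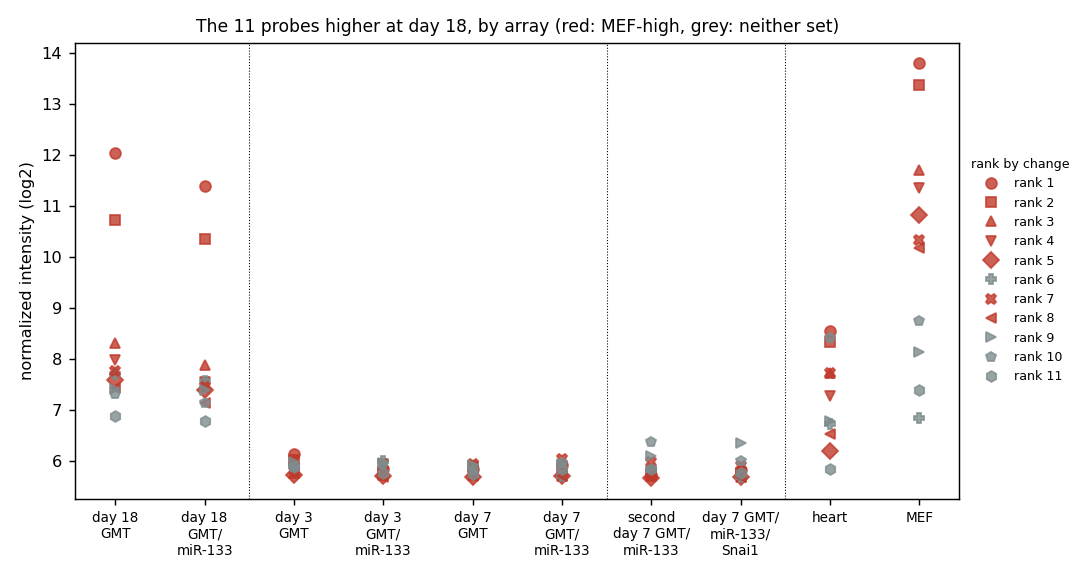
Normalized log2 intensity of the 11 probes that passed the test, on each of the 10 arrays (day 18, days 3 and 7, the 2 held-out day 7 arrays, then heart and MEF). Each symbol is 1 probe, ranked by its change; all 11 lie between 5.67 and 6.13 on the early arrays and between 6.77 and 12.03 at day 18.

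Set against the controls, the 11 probes were on the MEF side. MEF-high probes made up 7 of them (1.63% of all tested probes are MEF-high) and heart-high probes 0 (2.16%). MEF exceeded all 4 early arrays at 11 of 11 (25.3% of all tested probes) and both day 18 arrays at 10 of 11. Early values near the floor leave little room for a control to lie below them. The difference from MEF had a median of −2.73 for the day 18 mean and −4.46 for the early mean (log2). Heart, which also exceeded all 4 early arrays at 10 of the 11 (32.9% of all tested probes), was below both day 18 arrays at 9. Both held-out day 7 arrays were below both day 18 arrays at all 11, which held at 25.8% of all tested probes. Their values at the other 9 were 5.66 to 6.36. Those arrays took no part in the test but come from a scan session of their own. The 11 were picked for day 18 values above the early ones, which all tested probes were not. The shares over all tested probes are therefore no like measure here, and heart below day 18 is no separate result. In a bulk sample, a few cells with a high level and many cells with a low one cannot be told apart, and likewise fewer cells of a type and less RNA per cell.

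The GMT array was the brighter of the day 18 pair at each probe that passed. All 11 were higher there than on the day 18 GMT/miR-133 array, by 0.02 to 0.65 (log2), while 48.7% of tested probes were. The change from the early arrays was likewise larger with GMT alone at all 11, with a median difference of −0.25 (GMT/miR-133 minus GMT), and none of these differences passed the interaction test, whose adjusted p was 1 for each.

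Which arrays were pooled mattered for the number of calls. With the day 3 arrays alone as early, within 1 scan session, 11 probes were called higher and 1 lower, and 4 of the 11 pooled calls were among them. With the day 7 arrays alone, 879 were higher and 861 lower, including all 11. Without the day 18 GMT or the day 18 GMT/miR-133 array no probe passed. Without the day 3 GMT, day 3 GMT/miR-133, day 7 GMT or day 7 GMT/miR-133 array 1, 2, 2 and 1 passed. All of the 11 kept a positive change under each of these, with M400005459 at 5.5 to 6.04 and M400000367 at 4.55 to 4.78 (log2). M400005459 lost its call without either day 18 array, without either day 3 array and without the day 7 GMT/miR-133 array, and M400000367 without either day 18 array.

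Sizes beyond the test are given as a description. At 123 probes both day 18 arrays exceeded all 4 early arrays and the mean was at least 2-fold higher (0.595% of those tested). At 32 probes both were below all early arrays and the mean at least 2-fold lower (0.155%). Differences of at least 4-fold without overlap were found at 27 probes toward higher and 4 toward lower. In the authors' deposited table the balance turned, with 390 probes higher and 524 lower. That table was only log2-transformed, with no further correction or normalization, and 19781 probes had a value on all 6 arrays. The 11 called probes changed by 1.03 to 5.77 in the main fit. The 9 of them testable in that table changed by 3.24 to 8.08 (log2), so 2-fold is no like threshold. In the main processing, without the day 3 GMT/miR-133 array 185 were higher and 81 lower. The lower ones numbered 60 without the day 18 GMT/miR-133 array, 56 without the day 3 GMT array and 20 without the day 7 GMT array. Separation without regard to size was common, at 12.9% of probes toward higher (2664) and 16.3% toward lower (3372), and 2541 and 3340 of these were under 2-fold. The median absolute change over all tested probes was 0.088 (log2).

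**Figure D2:**
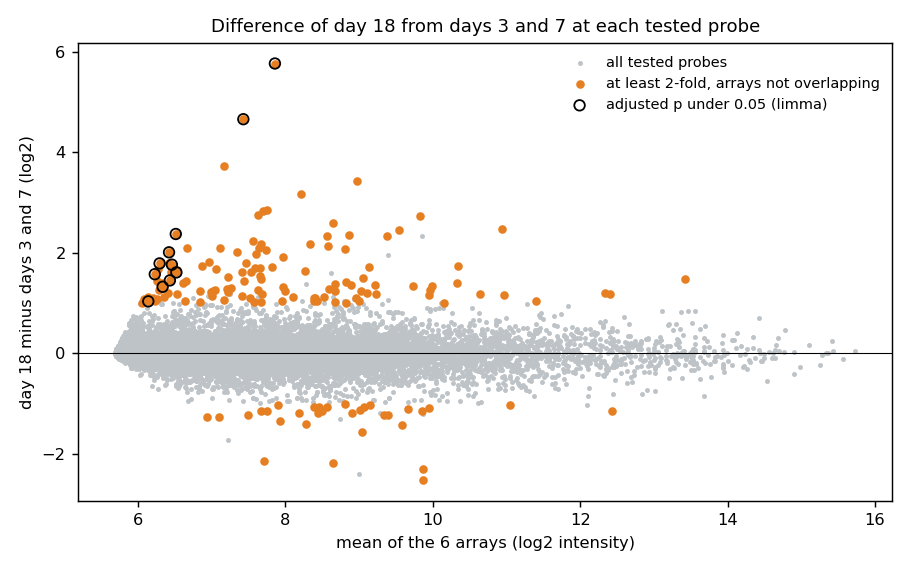
Difference of day 18 from days 3 and 7 (log2, y axis) at the 20674 tested probes against the mean log2 intensity of the 6 arrays (x axis). The 123 higher and 32 lower probes with at least 2-fold and no overlap are orange; the 11 that passed the test are ringed.

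The 123 higher probes drew on both control sets. MEF-high probes numbered 22 (17.9%, against 1.63% of all tested probes) and heart-high probes 19 (15.4%, against 2.16%), and 82 were in neither set. All tested probes were dimmer, with a median day 18 level of 6.51 against 8.82 for the 123. Values near the floor vary little, so the share over all tested probes is no like measure. The MEF-high probes, the heart-high probes and the rest differed in where day 18 lay between the controls.

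The 22 MEF-high ones had medians of 8.18 and 7.49 on the day 18 arrays (GMT, then GMT/miR-133), against 6.02 and 5.99 at day 3 and 5.88 and 5.96 at day 7. Their medians were 7.27 in heart and 10.90 in MEF. At 17 of them all 4 early arrays were below both controls, and at 19 the day 18 mean lay between heart and MEF. Probes picked for a rise from a low early level are more likely to lie this way, so these counts are no separate result. On the held-out arrays their medians were 5.93 and 5.84. At 21 of the 22 both held-out arrays were below both day 18 arrays, against 25.8% of all tested probes. The 22 were picked for high day 18 values, so that share is no like measure. In the median these probes were below heart in early iCM, and at day 18 above heart and below MEF.

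The 19 heart-high ones had medians of 9.03 and 9.22 on the day 18 arrays, against 8.11 and 8.44 at day 3 and 6.73 and 7.24 at day 7. Heart was at 10.95 and MEF at 6.10. Day 18 means lay between MEF and heart at 16 of these and early means at 14, so most were already above MEF and below heart before day 18. Their changes ran from 1.01 to 2.83 (log2). The held-out arrays, at 8.53 and 7.23, were both below day 18 at 13 of 19 (25.8% of all tested probes were). These probes, too, were picked for high day 18 values, so that share is no like measure. The second day 7 GMT/miR-133 array was near the day 3 level in the median.

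The 82 probes in neither set were at 9.04 and 8.84 at day 18, against 7.51 and 7.72 at day 3 and 6.71 and 6.87 at day 7, in the median. Heart and MEF were alike here, at 7.52 and 7.53. Both day 18 arrays exceeded both controls at 58 of them, and all 4 early arrays did so at 13. The largest change among them was 3.43 (log2). These 58 made up most of the 61 higher probes at which day 18 exceeded heart and MEF, which held at 5100 of the 20674 tested probes. Probes picked for a rise at day 18 are more likely to lie above both, so this is no separate result.

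**Figure D3:**
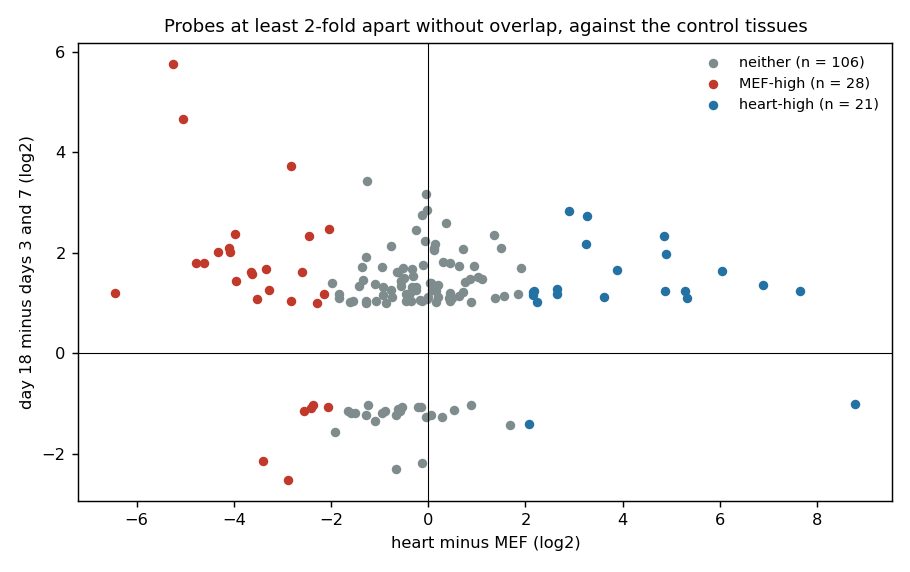
Difference of day 18 from days 3 and 7 (log2, y axis) against the heart minus MEF difference (log2, x axis) at the 123 higher and 32 lower probes at least 2-fold apart without overlap. MEF-high probes are red, heart-high probes blue and the rest grey; the 2 largest changes are MEF-high.

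Among the 32 lower probes, 6 were MEF-high (18.8%), 2 heart-high (6.25%) and 24 in neither set. The MEF-high share was thus about the same among lower as among higher probes. In the median the 24 stood at 7.97 and 7.99 on the day 18 arrays, against 8.92 and 8.66 at day 3 and 9.68 and 9.44 at day 7, with heart at 8.09 and MEF at 8.60. On the held-out arrays they were at 8.23 (second GMT/miR-133) and 8.66 (GMT/miR-133/Snai1), and the 6 MEF-high ones at 7.95 and 9.82. The second GMT/miR-133 array of day 7 was thus nearer to day 18 than to the day 7 pair at these probes. Both held-out arrays were above both day 18 arrays at 19 of the 32 (59.4%, against 28.6% of all tested probes). Heart was below all early arrays at 21 of the 32 (65.6%, against 37.5% of all tested probes). The day 18 mean was nearer to heart than the early mean at 21 (65.6%, against 49.1% of all tested probes). It was nearer to MEF than the early mean at 12 (37.5%, against 45.7%). The 32 were picked with day 18 below the early arrays, which all tested probes were not, so these shares are no like measure. The largest difference was at M200013648, which was named after its values were seen. It was at 8.84 and 7.52 on the day 18 arrays, against 10.45 and 9.04 at day 3 and 12.54 and 10.80 at day 7. The mean difference was −2.53 ± 0.76 (log2, SE; limma, adjusted p = 0.247). The day 3 GMT/miR-133 value, 9.04, was close to the day 18 GMT value, and the second GMT/miR-133 array of day 7, at 8.14, lay between the day 18 values. M200013648 passed with each day a term (limma, adjusted p = 0.00689), against day 3 alone (0.0462) and against day 7 alone (0.0254). The scan session as a term (limma, adjusted p = 0.0385) marks the day 7 pair among these arrays. Its difference, −1.56 (log2), is thus the one against day 3 alone. These fits share arrays and are not separate support. M200001893, named in the same way, was at 8.68 and 7.95 on the day 18 arrays, against 9.87 and 9.65 at day 3 and 11.87 and 11.14 at day 7, a difference of −2.32 ± 0.70 (limma, adjusted p = 0.245). It passed with each day a term (limma, adjusted p = 0.00937) and against day 7 alone (0.0191). Both of these had day 3 between day 18 and day 7. This order of the pair means held at 30 of the 32 lower probes, at 108 of the 123 higher ones and at 47.3% of all tested probes. Day 7 lay between at 2 of the 32, 15 of the 123 and 22.9% of all tested probes. The 2-fold probes were picked with day 18 at 1 end, which all tested probes were not. The share over all tested probes is therefore no like measure.

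The 2-fold groups were smaller against day 3 alone. Counting all tested probes, day 18 was at least 2-fold higher than the day 3 pair at 81 and lower at 15, and higher than the day 7 pair at 260 and lower at 158. These comparisons share the day 18 arrays. For the 123 higher probes the median difference was 1.11 against day 3 and 1.71 against day 7, and for the 32 lower ones −0.81 and −1.55 (log2). The day 7 arrays are those of the other session. When the second GMT/miR-133 array of day 7 replaced the first, 98 probes were higher and 14 lower without overlap.

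As sets, the heart-high and MEF-high probes differed little between day 18 and the early days. The 446 tested heart-high probes had medians relative to MEF of 0.51 and 0.62 on the day 18 arrays (GMT, then GMT/miR-133), against 0.42 and 0.55 at day 3 and 0.34 and 0.56 at day 7 (log2), where heart was at 2.85. Within each treatment day 18 was the highest of these arrays, but the arrays of days 3 and 7 with miR-133 exceeded the day 18 GMT array. The held-out second GMT/miR-133 array of day 7, at 0.84, exceeded both day 18 arrays. The median change was 0.082 over heart-high probes and −0.01 over all tested probes. Swapping that array in for the first of its kind gave 0.031, and the sign turned to −0.059 in the authors' deposited table. Heart-high probes without overlap made up 24.2% toward higher and 14.1% toward lower, against 12.9% and 16.3% of all tested probes.

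The 336 tested MEF-high probes had medians of −1.57 and −1.88 on the day 18 arrays, against −1.81 and −2.04 at day 3 and −1.70 and −1.89 at day 7 (log2, relative to MEF), where heart was at −2.63. The median change was 0.07, with quartiles of −0.21 and 0.39, wider than the −0.10 and 0.08 over all tested probes. Its sign was not stable: it was −0.03 with median scaling, −0.071 in the authors' deposited table, −0.013 and −0.022 with sets drawn at 2-fold and 8-fold, 0.011 with quantile normalization over the 6 iCM arrays and 0.036 without the day 3 GMT array. Separation was more frequent toward higher, at 27.7%, than toward lower, at 11.3%, where 12.9% and 16.3% of all tested probes separated. The median change is given by level as a description, since a probe far below MEF lies near the floor early and has little room to fall. Sorted by their level on the 2 held-out arrays, which the comparison did not use, the 41 MEF-high probes at least 16-fold below MEF had a median change of 0.35 and held 15 of the 22 higher probes. For the 121 probes 4- to 16-fold below MEF it was 0.25, for the 77 probes 2- to 4-fold below it was 0.01, and for the 97 nearer to MEF or above it was −0.08.

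**Figure D4:**
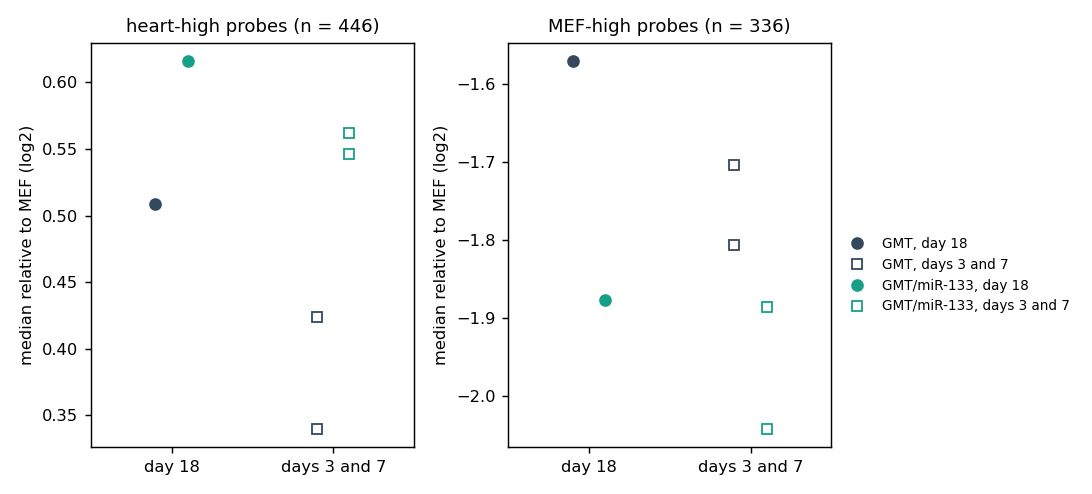
Median log2 intensity relative to MEF (y axis) of heart-high (left) and MEF-high (right) probes on the 2 day 18 arrays (filled circles) and the 4 arrays of days 3 and 7 (open squares), by treatment. Among these 6 arrays day 18 is the highest point within each treatment in both panels. On every day the treatments lie further apart than day 18 does from its nearer early day. The y axes do not start at 0.

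Nearness of the whole profile to either control could not pass 0.05 in this design, so the values are a description. Across 22236 probes, Spearman's rho with the heart array was 0.8953 and 0.8975 on the day 18 arrays, against 0.8962 and 0.8916 at day 3 and 0.8886 and 0.8929 at day 7. The mean difference was 0.00405 (exact permutation test over 15 splits, two-sided, p = 0.267, where the smallest possible is 0.0667). With MEF, rho was 0.931 and 0.9203 at day 18, against 0.9233 and 0.9104 at day 3 and 0.9262 and 0.9199 at day 7, a difference of 0.00571 (exact permutation test, two-sided, p = 0.4). That difference was 0.00037 without the day 18 GMT array, 0.01105 without the day 18 GMT/miR-133 array and 0.00253 without the day 3 GMT/miR-133 array. The groups overlapped for both controls. Permuting within the treatments gave exact p of 0.444 for heart and 0.222 for MEF, and that design cannot go below 0.111. Each rho is taken over probes of 1 array, and probes are no replicates.

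The change at day 18 was also compared between the treatments. By the interaction term of limma, 0 of 20674 probes differed (0%). The smallest adjusted p was 1, and without adjustment 384 probes were under 0.05. With GMT alone 161 probes were at least 2-fold higher at day 18 and 70 lower, and with GMT/miR-133 123 were higher and 48 lower. The higher probes had 96 in common, 59.6% of the GMT list and 78% of the GMT/miR-133 list. The lower ones had 27 in common, 38.6% and 56.2%. No probe was 2-fold higher in one treatment and 2-fold lower in the other. Across probes the changes in the 2 treatments, which come from different arrays, had a Pearson's r of 0.763 and a Spearman's rho of 0.598. Their sign was the same at 69.1% of tested probes. Both treatments have their early arrays in the same scan sessions, so a session difference enters both. With 1 day 18 array per treatment, a difference between the treatments at a single probe has no replicate of its own, and a p that misses the threshold does not show that they changed alike.

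**Figure D5:**
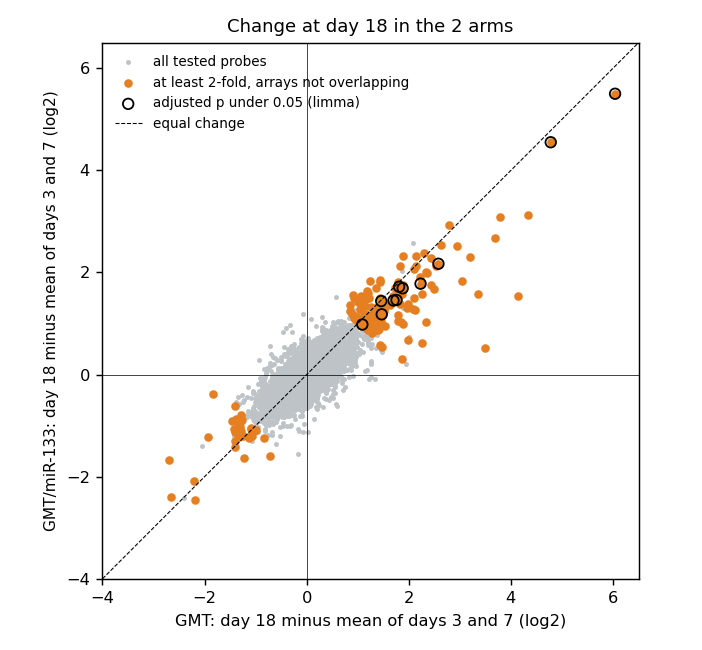
Change from the mean of days 3 and 7 to day 18 (log2) at each tested probe with GMT (x axis) and with GMT/miR-133 (y axis). The 11 probes that passed the test (ringed) lie on or below the dashed line of equal change, with larger changes for GMT alone.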

How the data were processed

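RNA of 10 mouse samples was hybridised to 1-colour (Cy5) Toray chips, 1 array per sample. The deposited scanner files give 1 median intensity for each of 27456 spots, per the file headers, with no normalization. The number of arrays limits the precision. The sources used here do not state how the authors made the intensities of their value table. It is linear, has column medians of 25, leaves dim probes empty and was log2-transformed as an alternative. Spots were corrected with normexp fitted to the 2736 blank spots (limma 3.58.1, R 4.3.3, offset 50), quantile-normalized over 10 arrays and log2-transformed. The test took probes detected on 2 or more of the 6 iCM arrays, since a probe on at day 18 alone can be detected on 2. limma fitted day 18 and treatment (3 residual degrees of freedom) and, for the interaction, their product. The fit was tested on simulated data. Alternatives changed the background, offset, normalization, filter, variance model, early days, session term and arrays. Named probes are the 2 with the largest rise and the 2 with the largest fall that passed without overlap; no fall passed, so the 2 largest falls were named after their values were seen. None of the probe IDs was found in the gene table (0 matches), so gene lists and cell type markers written for this work could not be applied. The comparison, the sets and the lists were chosen with earlier results of these data known.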

Additional observations from a re-analysis of the deposited data

How the results depend on the processing

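The count of calls varied with the processing, while each of the 11 probes kept a positive change under every alternative in which it was tested. With the local background column 6 of the 11 stayed at least 2-fold and the lowest change was 0.35 (log2). The calls numbered 1 higher and 0 lower with the local background column, 88 and 13 without background subtraction, 97 and 13 at offset 16, 203 and 21 when the variance was trended and robust, and 75 and 16 in the authors' deposited table, where 9 of the 11 could be tested and all 9 were called. They were 6 higher without a filter on dim probes and 4 with detection on all 6 arrays. With each day a term they were 905 and 760, and with no term for the arm 48 and 10. With day 3 alone as early they were 11 and 1, and with day 7 alone 879 and 861. The scan session as a term gave 62 and 18. Among these arrays the session marks the day 7 pair. That fit compares day 18 with day 3 and does not correct the pooled comparison for session. Leaving out 1 array at a time gave 0 to 2 higher and 0 lower. Median scaling, quantile normalization over the 6 iCM arrays and the second day 7 GMT/miR-133 array gave 14, 11 and 12 higher and 0 lower.

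Probes at least 2-fold apart without overlap numbered 197 higher and 58 lower without background subtraction, and 237 and 73 with an offset of 16. They numbered 390 and 524 in the authors' deposited table, 80 and 15 against day 3 and 259 and 157 against day 7. With the session as a term, where the size is that against day 3, they numbered 78 and 14. The lower ones were 86 with the local background, 54 with median scaling and 14 with the second day 7 array. Leaving out 1 array gave 101 to 185 higher and 20 to 81 lower. The interaction gave 1 call with the local background and 0 otherwise. With the local background the difference of rho turned to −0.01352 for heart and −0.00067 for MEF, and the heart-high median was −0.059 in the authors' deposited table. The causes were not tested. M400005459 missed the threshold with the local background (4.04, limma, adjusted p = 0.272).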

Other observations

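Probes that crossed the detection cutoff between the days were few and dim. Detected on both day 18 arrays and on none of the 4 early arrays were 92 probes, with a median change of 0.08 (log2), and 67 of them (72.8%) were detected in MEF and 59 in heart, where 87.7% and 86.6% of all probes were detected. Detected on all 4 early arrays and on neither day 18 array were 50 probes, with a median change of −0.08. None of either group reached 2-fold. Each of the 11 probes that passed the test was detected on at least 1 early array, so none of them is among these.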
